A study of Mus musculus with 12 samples.

Results

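The genes described here are 10 growth arrest genes of the mouse liver, taken by symbol from the 25676 genes of a deposited TPM table: the cyclin-dependent kinase (CDK) inhibitor genes Cdkn1a, Cdkn1b, Cdkn2b and Cdkn2c, the p53 target genes Mdm2, Ccng1, Gdf15, Bax and Phlda3, and the cyclin gene Ccnd1. TPM is a transcript's abundance corrected for its length and scaled to a fixed sum in each library. The study measured whole liver of C57BL/6 mice by bulk RNA sequencing at 3 to 4 months of age. It compared 6 mice in which Foxa3-Cre removed Yap1 (KO; 3 females and 3 males) with 6 wild-type mice (WT; 3 females and 3 males). Each of the 4 groups held 3 mice, numbered 1 to 3 in order of deposition, so equal numbers pair no mice. The Foxa3 promoter drives Cre in the endoderm that gives rise to hepatocytes and bile duct cells, while the liver's blood vessel, stellate and immune cells come from other tissue. The labels do not say whether the WT mice carried Cre or floxed alleles, nor at what time of day the livers were taken.

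YAP1 is a coactivator that works through TEAD factors, drives growth genes and is needed to form the bile ducts. p53 is a transcription factor that is stabilised after DNA damage and other stress and turns on genes that stop the cell cycle, repair DNA or kill the cell. The products of Cdkn1a (p21) and Cdkn1b (p27) bind cyclin and CDK complexes of G1 and S phase, whereas those of Cdkn2b (p15) and Cdkn2c (p18) bind CDK4 and CDK6 and keep cyclin D1, the product of Ccnd1, from activating them. Mdm2, itself a p53 target, marks p53 for degradation, which closes a feedback loop.

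Promoter sequences were read from RefSeq (GRCm38.p6) to show which members carry a p53 site close to their start. A p53 half-site, 10 bases that fit the consensus of that name on either strand, lay within 250 bases before an annotated start in 4 of the 9 members that had a promoter entry: Cdkn1a, Ccng1, Mdm2 and Bax. Of all 32851 windows of that length in the table, 7.13% held one. In Cdkn1a, which lies on chromosome 17 from 29090976 to 29100727 on the plus strand, the window of the upstream start held 2 half-sites, starting 73 and 51 bases before the start with 12 bases between them. A pair of half-sites at most 13 bases apart, which makes a full p53 element, was found in 0.0639% of all windows. The whole Cdkn1a window and 30 bases around each other half-site are given 5′ to 3′ on the gene's strand, with the half-sites in capitals.
Cdkn1a, chr17:29090729-29090978, plus strand: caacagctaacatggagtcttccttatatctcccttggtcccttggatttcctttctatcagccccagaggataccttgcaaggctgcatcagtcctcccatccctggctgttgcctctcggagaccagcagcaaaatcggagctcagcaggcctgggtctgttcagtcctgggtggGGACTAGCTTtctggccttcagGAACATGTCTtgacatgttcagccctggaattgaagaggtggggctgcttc
Ccng1, half-site starting 185 bases before the start, minus strand of chromosome 11: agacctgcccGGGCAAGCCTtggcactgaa
Mdm2, half-site starting 186 bases before the start, minus strand of chromosome 10: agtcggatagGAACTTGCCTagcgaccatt
Bax, half-site starting 201 bases before the start, minus strand of chromosome 7: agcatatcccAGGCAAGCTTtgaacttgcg
The hexamer GGAATG, the core of the site bound by TEAD factors, was searched on both strands and occurred in 1 member's window, that of the downstream start of Gdf15, against 12.6% of all windows. These matches describe letters in the windows and not bound sites.

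Yap1 averaged 29.5 ± 4.46 TPM (SD, n = 6) in WT and 2.02 ± 0.78 TPM (SD, n = 6) in KO livers, with no overlap, so the labels fit the targeted gene. Each library held 14321 to 15482 genes above 0 TPM, and libraries of 1 group correlated with r between 0.983 and 0.995 over 12 pairs. Since TPM keeps no read depth, the depth behind each value is unknown. The KO livers differed from WT in the makeup of their RNA: over 12278 tested genes the median log2 fold change was 0.35 in TPM as deposited and -0.04 after each library was rescaled by the median of its ratios to the average library. Both values are therefore given for each member, and the rescaled one is the change relative to the median gene. Two-sided tests are limma's on log2(TPM + 1), with p-values adjusted over all tested genes, and a gene is said to have risen or fallen when its adjusted p was under 0.05. The p-values measure the spread between mice, pooled over all groups, so unlike WT males also widen the SE of a female value. In whole liver fewer cells of a type and less RNA per cell cannot be told apart.

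The WT males were not alike in the genes described here. Cdkn1a and Gdf15 were 2 of the 21 tested genes (0.171% of the tested genes) that in WT males 1 and 2 both lay at least 4-fold above the other 4 WT livers on the TPM + 1 scale. WT males 1 and 2 also stood apart from the other 4 WT livers in 12 of 15 circadian clock genes and in 7 of 7 immediate early genes, in that both lay on 1 side of those 4 livers; these are lists that were chosen after these values were seen, and 39.2% of all tested genes did the same. Arntl, the BMAL1 gene of the clock's activating arm, was at 14.2 to 15.5 TPM in WT males 1 and 2, at 0.44 to 1.03 TPM in the other WT livers and at 5.41 to 23.6 TPM in the KO livers. Dbp, a clock output gene, went the other way, with 0.74 to 1.15 TPM in WT males 1 and 2, 175 to 213 TPM in the other WT livers and 0.96 to 46.0 TPM in the KO livers. Fos, an immediate early gene that responds within minutes to stimulation, was at 41.9 to 64.0, at 0.36 to 1.62 and at 15.3 to 189 TPM in the same order. In Arntl and Fos WT males 1 and 2 thus lay inside the KO range, in Dbp inside it or just below it, and results on Cdkn1a and Gdf15 are given with and without them. Because these 2 livers were singled out for their Cdkn1a and Gdf15 values, the values of both genes without either or both of them, and against these 2 WT males alone, are given as a description, with no test.

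Cdkn1a was nearly silent in 4 WT livers and high in every KO liver. In WT females 1 to 3 it was at 0.93, 0.76 and 1.36 TPM, and in WT male 3 at 0.84 TPM. WT males 1 and 2 stood at 26.9 and 27.2 TPM, inside the range of the KO livers. KO females 1 to 3 had 25.2, 93.8 and 34.7 TPM and KO males 1 to 3 had 72.9, 18.7 and 39.0 TPM. Every KO liver was thus above every WT female and WT male 3, while 2 KO livers lay below WT males 1 and 2. Over both sexes Cdkn1a rose by 3.13 ± 0.70 (SE, here and after each log2 value) on the log2 scale (limma adjusted p = 0.0021), and by 2.72 ± 0.77 after rescaling (limma adjusted p = 0.013). Without WT males 1 and 2 the log2 fold change was 4.45, and 4.14 after rescaling.

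In females Cdkn1a rose by 4.48 ± 0.87 on the log2 scale (limma adjusted p = 0.0017), and by 4.19 ± 0.94 after rescaling (limma adjusted p = 0.0057). In males its log2 fold change was 1.78 ± 0.87 and did not pass the test (limma adjusted p = 0.11). The male value depended on which WT males were used: it was 4.39 against WT male 3 alone and 0.47 against WT males 1 and 2. After rescaling these were 4.05 and -0.14. The male effect minus the female one did not pass the test with all livers (limma adjusted p = 0.56). It was -0.08 without WT males 1 and 2 and -4.01 without WT male 3, and both values follow from which WT males were kept.

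Gdf15, a secreted stress hormone of the TGF-beta superfamily that lowers appetite and is a p53 target, followed Cdkn1a in which livers were low. It was at 5.97, 5.65 and 4.14 TPM in WT females 1 to 3 and at 3.97 TPM in WT male 3. WT males 1 and 2 reached 276 and 134 TPM, and the first of these was the highest of all 12 livers. KO females 1 to 3 had 21.4, 250 and 79.7 TPM and KO males 1 to 3 had 71.8, 121 and 24.9 TPM. The KO livers were all above the 4 low WT livers and overlapped WT males 1 and 2. Over both sexes the log2 fold change of Gdf15 was 1.87 ± 0.97 and did not pass the test (limma adjusted p = 0.12). It was 2.57 without WT male 1, the liver with the highest value, and 3.63 without WT males 1 and 2, or 3.27 after rescaling as well. In females the rise was 3.63 ± 1.22 (limma adjusted p = 0.036), and the rescaled value of 3.31 ± 1.29 did not pass the test (limma adjusted p = 0.078). This female call was lost when any 1 of the 3 WT females, KO female 2 or KO female 3 was left out, at log2 fold changes of 2.78 to 3.72, and also when genes of low TPM were not filtered out (limma adjusted p = 0.072). The SE of the female value takes in the split among the WT males, and without WT male 3 it was 0.73 for the same female livers. In males the log2 fold change was 0.10 ± 1.22 with all 3 WT males (limma adjusted p = 0.95), 3.62 against WT male 3 alone and -1.66 without WT male 3. After rescaling these values were -0.45, 3.19 and -2.28. The male effect minus the female one was -3.53 ± 1.72 on the log2 scale with all livers (limma adjusted p = 0.59), and it was -0.01 without WT males 1 and 2 and -5.29 without WT male 3.

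**Figure D1:**
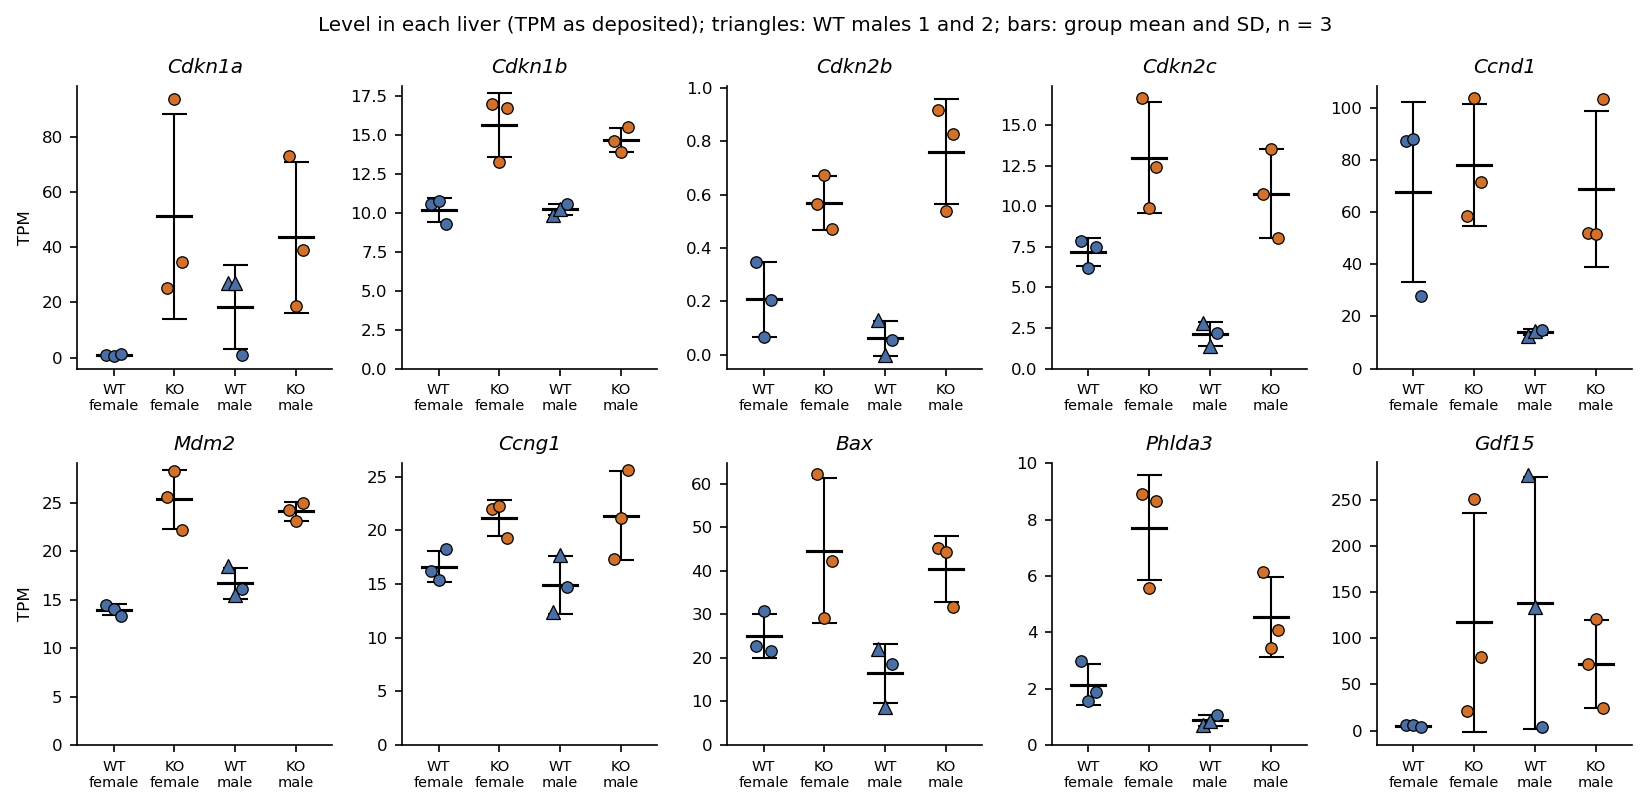
TPM as deposited of the 10 genes in each of the 12 livers (y axis, from 0, with its own scale in each panel) by group (x axis); 1 point is 1 liver, blue is WT and orange is KO, triangles mark WT males 1 and 2, and black bars show the group mean and SD (n = 3). WT males 1 and 2 sit at 26.9 and 27.2 TPM for Cdkn1a, among the KO livers, whereas for Phlda3, Cdkn2c and Mdm2 they sit with the other WT livers below every KO liver.

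Cdkn1b was evenly expressed in WT livers, at 9.28 to 10.7 TPM, and higher in all KO livers, at 13.3 to 17.0 TPM. KO females averaged 15.6 ± 2.07 TPM and KO males 14.7 ± 0.79 TPM (SD, n = 3 each). Cdkn1b rose over both sexes by 0.53 ± 0.09 on the log2 scale in TPM as deposited (limma adjusted p = 0.00042). After rescaling its log2 fold change was 0.09 ± 0.09 (limma adjusted p = 0.46). WT males 1 and 2, at 9.85 and 10.2 TPM, lay inside the range of the other WT livers.

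Cdkn2c, the p18 inhibitor gene, was lower in WT males than in every other liver. WT males 1 to 3 had 2.82, 1.40 and 2.17 TPM and WT females 1 to 3 had 7.83, 6.22 and 7.51 TPM. KO males 1 to 3 reached 10.8, 13.5 and 8.03 TPM and KO females 1 to 3 reached 16.7, 9.89 and 12.4 TPM. All KO livers were above all WT livers, although the lowest KO male was close to the highest WT female. Cdkn2c rose over both sexes by 1.33 ± 0.23 on the log2 scale (limma adjusted p = 0.00027), and by 0.95 ± 0.22 after rescaling (limma adjusted p = 0.0035). In males it rose by 1.91 ± 0.23 (limma adjusted p = 5.1e-05) and by 1.47 ± 0.23 after rescaling (limma adjusted p = 0.00062). In females it rose by 0.75 ± 0.23 (limma adjusted p = 0.026), and the rescaled value of 0.43 ± 0.23 did not pass the test (limma adjusted p = 0.20). The female call was also lost in TPM as deposited when WT female 2, WT female 3, KO female 1 or KO female 3 was left out, at log2 fold changes of 0.57 to 0.78. The larger male value was not shown to differ from the female one: the difference was 1.16 ± 0.33 (limma adjusted p = 0.22).

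Cdkn2b, the p15 inhibitor gene, had a mean below 0.5 TPM and was not among the tested genes. It was at 0 to 0.35 TPM in WT livers, with WT male 2 listed at 0, and at 0.47 to 0.92 TPM in KO livers, which did not overlap with WT. After rescaling the genotypes did not overlap either, at 0 to 0.38 TPM in WT and 0.41 to 0.86 TPM in KO livers. When all 17332 genes above 0 TPM in any liver were tested, its log2 fold change was 0.55 ± 0.09 (limma adjusted p = 0.00035), and 0.45 ± 0.09 after rescaling (limma adjusted p = 0.0026). The pseudocount of 1 TPM makes these log2 values smaller than the ratio of such low levels.

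Ccnd1 encodes cyclin D1, which the INK4 inhibitors p15 and p18 act against, and it was higher in KO than in WT males. WT males 1 to 3 had 12.6, 14.4 and 14.8 TPM, whereas KO males 1 to 3 had 51.9, 51.7 and 104 TPM, with no overlap. WT females 1 to 3 had 87.4, 87.9 and 27.8 TPM and KO females 1 to 3 had 58.6, 104 and 71.7 TPM, and these overlapped. In males Ccnd1 rose by 2.15 ± 0.40 on the log2 scale (limma adjusted p = 0.0010), and by 1.60 ± 0.39 after rescaling (limma adjusted p = 0.010). In females its log2 fold change was 0.33 ± 0.40 (limma adjusted p = 0.56). The difference between the sexes, 1.82 ± 0.56, did not pass the test with all livers (limma adjusted p = 0.29). Without WT female 3, the WT female with low Ccnd1, this difference was 2.36 ± 0.40. That liver is singled out for its Ccnd1 value, so the value without it is given as a description, with no test. Over both sexes the rise of 1.24 ± 0.37 (limma adjusted p = 0.012) was 0.79 ± 0.35 after rescaling and did not pass the test (limma adjusted p = 0.090). Ccnd1 lies on chromosome 7 from 144929931 to 144939925 on the minus strand and overlaps LTO1 on the other strand, and whether reads were counted by strand is not given in the sources used here.

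The feedback genes Mdm2 and Ccng1 rose over both sexes in TPM as deposited and did not pass the test after rescaling. Mdm2 was at 13.3 to 18.5 TPM in WT and at 22.2 to 28.3 TPM in KO livers, with no overlap. It rose over both sexes by 0.66 ± 0.10 on the log2 scale (limma adjusted p = 0.00011), and its rescaled value of 0.22 ± 0.12 did not pass the test (limma adjusted p = 0.16). The rescaled value passed without WT males 1 and 2, at 0.35 ± 0.12 (limma adjusted p = 0.040). In females Mdm2 also rose after rescaling, by 0.48 ± 0.14 (limma adjusted p = 0.022), while the rescaled male value was -0.04 ± 0.14 (limma adjusted p = 0.85). That difference between the sexes, -0.52 ± 0.19 after rescaling, did not pass the test (limma adjusted p = 0.53). Ccng1, whose product cyclin G1 recruits a phosphatase to Mdm2, was at 12.4 to 18.2 TPM in WT and at 17.3 to 25.6 TPM in KO livers, and the ranges overlapped. It rose by 0.41 ± 0.12 (limma adjusted p = 0.010), and the direction turned after rescaling, to -0.03 ± 0.12 (limma adjusted p = 0.85).

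The effector genes Bax and Phlda3 rose over both sexes under both scalings. Bax, which permeabilises the outer mitochondrial membrane in apoptosis, was at 8.84 to 30.8 TPM in WT and at 29.2 to 62.2 TPM in KO livers. The ranges met only at WT female 2 and KO female 2. Over both sexes Bax rose by 1.04 ± 0.23 on the log2 scale (limma adjusted p = 0.0021), and by 0.59 ± 0.21 after rescaling (limma adjusted p = 0.042). Without WT males 1 and 2 the rise in TPM as deposited was 0.86 ± 0.21 (limma adjusted p = 0.0047), and the rescaled value of 0.48 ± 0.20 did not pass the test (limma adjusted p = 0.086). Without WT male 3 the rescaled value over both sexes, 0.61 ± 0.23, did not pass the test either (limma adjusted p = 0.058). In males Bax rose by 1.32 ± 0.32 (limma adjusted p = 0.0055), and the rescaled value of 0.77 ± 0.30 did not pass the test (limma adjusted p = 0.086). In females its log2 fold change was 0.76 ± 0.32 (limma adjusted p = 0.085), and 0.42 ± 0.30 after rescaling (limma adjusted p = 0.34); in TPM as deposited it passed when KO female 2 was left out, at 1.03, or WT male 2, at 0.76. WT male 2 had the lowest Bax value of all livers, at 8.84 TPM.

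Phlda3, which restrains AKT signalling at the membrane, separated the genotypes within each sex and in the pooled set. WT females 1 to 3 had 2.97, 1.58 and 1.88 TPM and KO females 1 to 3 had 8.91, 5.57 and 8.68 TPM. WT males 1 to 3 had 0.70, 0.85 and 1.07 TPM and KO males 1 to 3 had 6.15, 3.43 and 4.08 TPM. WT males 1 and 2 were the lowest of all livers for Phlda3, opposite to their place for Cdkn1a and Gdf15. Phlda3 rose by 1.47 ± 0.23 in females (limma adjusted p = 0.00043) and by 1.54 ± 0.23 in males (limma adjusted p = 0.00025) on the log2 scale, and the difference between these effects was 0.07 ± 0.33 (limma adjusted p = 0.96). After rescaling both values were 1.19 ± 0.23 (limma adjusted p = 0.0027 in females and 0.0028 in males).

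In number, 8 of the 9 tested members rose over both sexes in TPM as deposited, where 50.1% of all tested genes rose, and Gdf15 was the exception. After rescaling 4 rose (Cdkn1a, Cdkn2c, Bax and Phlda3), where 20.9% of all tested genes did. The median log2 fold change of the 9 members was 1.24 against 0.35 for all tested genes, and 0.79 against -0.04 after rescaling. In males 7 members rose (43.3% of all tested genes did), and 3 after rescaling (Cdkn2c, Phlda3 and Ccnd1; 13.9% of all tested genes). In females 6 rose (29.1%), and 3 after rescaling (Cdkn1a, Mdm2 and Phlda3; 15.2%). Of the 7 tested members other than Cdkn1a and Gdf15, 6 rose over both sexes without WT males 1 and 2 (41.7%), with Ccnd1 lost, and 3 after rescaling (Cdkn2c, Mdm2 and Phlda3; 21.1%). Of the same 7 members, 6 rose in males without WT male 3 (40.8%), and 3 after rescaling (12.2%). All 6 KO livers lay above all 6 WT livers for 4 tested members, Cdkn1b, Cdkn2c, Mdm2 and Phlda3, as for 28.7% of all tested genes, and for 0 tested members after rescaling (10.8%). Leaving out WT males 1 and 2 adds Cdkn1a and Gdf15 and makes 6 (34%), which the choice of these 2 livers fixes. Cdkn2b, which was not tested, separated the genotypes under both scalings.

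**Figure D2:**
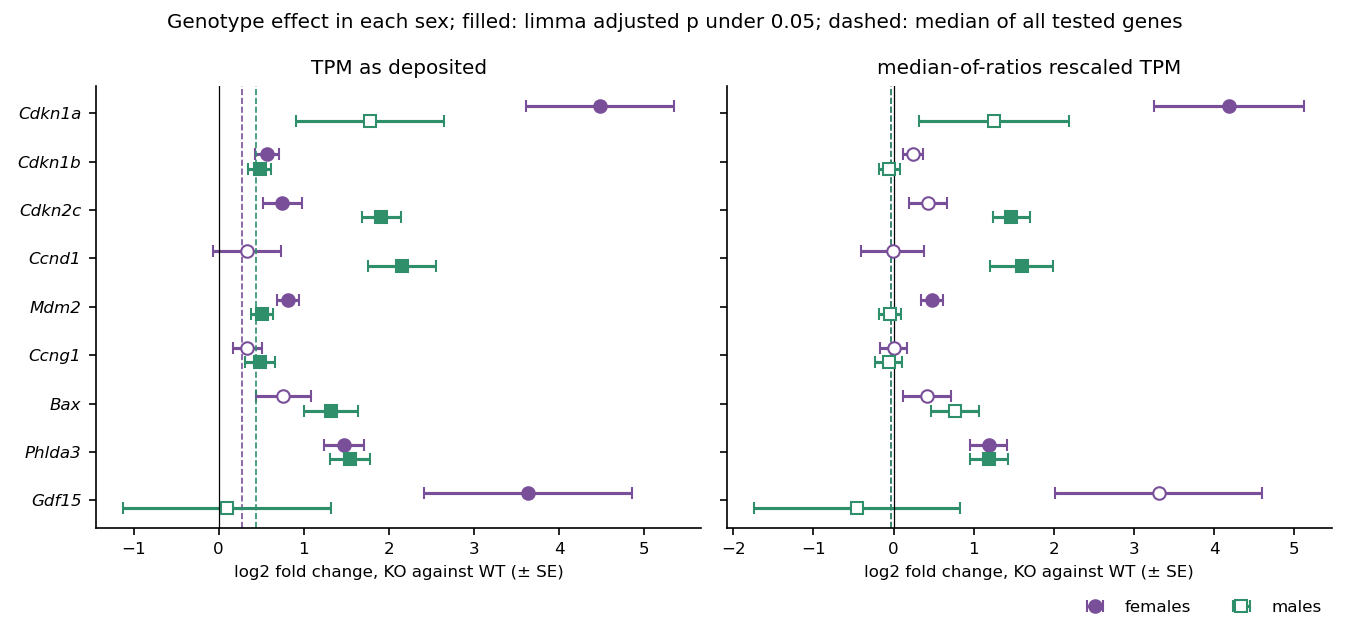
Log2 fold change of KO against WT on log2(TPM + 1) (x axis, ± SE) for the 9 tested members (rows) in females (circles) and males (squares), from TPM as deposited (left) and rescaled TPM (right); filled symbols passed the limma test at an adjusted p under 0.05, and dashed lines mark the median of all tested genes in each sex. Phlda3 is filled in both sexes in both panels, while Cdkn1a is filled only for females and Ccnd1 only for males.

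With all 12 livers the interaction of genotype and sex passed the limma test for 0 of the 9 members, against 0.912% of all tested genes (3 members, Cdkn1a, Cdkn2c and Ccnd1, had an unadjusted p under 0.05, as did 1087 of the 12278 tested genes). Among WT livers, Cdkn2c and Ccnd1 were lower in males, by a log2 difference of -1.41 ± 0.23 for Cdkn2c (limma adjusted p = 0.0037) and of -2.03 ± 0.40 for Ccnd1 (limma adjusted p = 0.011). These were the 2 members that were lower in WT males, where 4.6% of all tested genes were, and both also differed after rescaling. With WT male 3 as the only WT male, whose spread is then taken from the other groups, the log2 differences were nearly the same, at -1.37 for Cdkn2c and -1.94 for Ccnd1, and with 1 liver on the male side neither passed the limma test. Ccnd1 also missed the threshold without WT female 1 or WT female 2, at -1.76 each. Among KO livers 0 members differed by sex by limma's test, as did 0.0814% of all tested genes, and Phlda3 had an unadjusted p under 0.05, with a log2 difference of -0.66 ± 0.23.

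**Figure D3:**
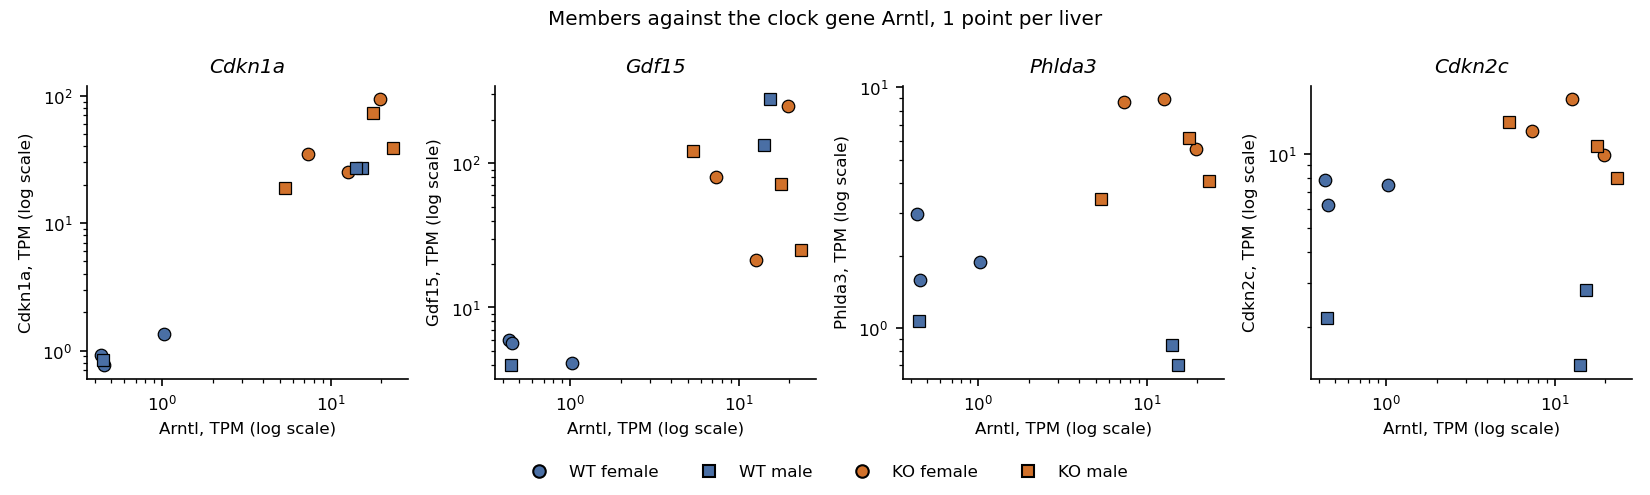
TPM of Cdkn1a, Gdf15, Phlda3 and Cdkn2c (y axes, log scale) against TPM of the clock gene Arntl (x axes, log scale), 1 point per liver, with circles for females, squares for males, blue for WT and orange for KO. For Cdkn1a and Gdf15 the 2 blue squares at 14.2 and 15.5 TPM of Arntl lie with the orange points, and for Phlda3 and Cdkn2c they lie below them.

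The plot against Arntl sets the members beside the clock genes. In females the level of Arntl and the genotype cannot be told apart, because all 3 WT females had Arntl at or below 1.03 TPM and all KO females were above it. Of the 15 clock genes, 12 did not overlap between WT and KO females (51.3% of all tested genes did not). Per1, a clock repressor gene, was at 12.4 to 15.5 TPM in WT and 5.41 to 26.3 TPM in KO females, and Cry1 and Nr1d1 overlapped too. Among males, WT males 1 and 2 had Arntl inside the KO range. In males without WT male 3, 6 members rose in TPM as deposited (Cdkn1b, Cdkn2c, Mdm2, Bax, Phlda3 and Ccnd1), where 40.8% of all tested genes did. Ccng1 did not pass the test, and the values of Cdkn1a (0.47) and Gdf15 (-1.66) are given with no test. The log2 fold change in this comparison was 1.62 ± 0.27 for Phlda3 (limma adjusted p = 0.00068), 1.93 ± 0.27 for Cdkn2c (limma adjusted p = 0.00021) and 2.20 ± 0.45 for Ccnd1 (limma adjusted p = 0.0028). These 3 also passed the test after rescaling, at 1.25, 1.46 and 1.60, where 12.2% of all tested genes rose, and the other 3 did not. The WT side of this comparison rests on 2 livers. The part of clock phase or of immediate early genes in the values of any of the 10 genes was not tested.

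Among 34 other known p53 targets, 32 were tested, and 21 rose and 0 fell in TPM as deposited, where 50.1% of all tested genes rose. Their median log2 fold change was 0.53, against 0.35 for all tested genes. After rescaling 10 rose and 3 fell, where 20.9% of all tested genes rose, with a median of 0.15 against -0.04. Tnfrsf10b, a death receptor gene, went from 0.25 ± 0.11 TPM in WT to 3.42 ± 1.01 TPM in KO (SD, n = 6 each; log2 fold change 1.79, limma adjusted p = 1.0e-06), and the genotypes did not overlap. Ephx1, which encodes microsomal epoxide hydrolase, went from 298 ± 65.7 to 857 ± 108 TPM (log2 fold change 1.54, limma adjusted p = 1.1e-06). Btg2, an antiproliferative gene, rose by 2.84 on the log2 scale (limma adjusted p = 0.011) and shared the WT pattern of Cdkn1a, with 282 and 193 TPM in WT males 1 and 2, 6.56 to 10.6 TPM in the other WT livers and 68.4 to 484 TPM in the KO livers. Trp53inp1 was the other gene of this list that stood apart in WT males 1 and 2, at 218 and 151 TPM against 22.1 to 36.9 TPM in the other WT livers and 31.9 to 99.9 TPM in the KO livers. Unlike Btg2 it was thus higher in WT males 1 and 2 than in every KO liver, and the KO livers overlapped the other WT livers; it was named after its values were seen. The list had 17 genes that rose without WT males 1 and 2, where 41.7% of all tested genes did. Btg2 is among them, and its call there follows from leaving out these 2 livers.

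Of p53 itself and its regulators, 11 of 14 were tested, and 6 rose and 0 fell, where 50.1% of all tested genes rose. The median log2 fold change of 0.33 was close to the 0.35 of all tested genes. Trp53 mRNA went from 15.2 ± 3.88 to 27.2 ± 4.52 TPM (SD, n = 6 each), a log2 fold change of 0.83 (limma adjusted p = 0.0012) and of 0.39 after rescaling (limma adjusted p = 0.035). The checkpoint kinase gene Chek2 rose by 0.55 and the damage adaptor gene Trp53bp1 by 0.48 in TPM as deposited (limma adjusted p = 0.0054 for both), and neither passed the test after rescaling. After rescaling, where 20.9% of all tested genes rose, Trp53 was the 1 gene of the list that rose and Cop1, a ubiquitin ligase gene for p53, the 1 that fell, by 0.54 on the log2 scale (limma adjusted p = 0.00058). Without WT males 1 and 2 the list had 4 genes that rose in TPM as deposited (41.7% of all tested genes did). It had 0 after rescaling (21.1%), with Trp53 at 0.23 (limma adjusted p = 0.13). The TPM values are of mRNA and do not show p53 protein.

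The other CDK inhibitor genes stayed low. Cdkn2d (p19) rose from 2.24 ± 0.87 to 3.82 ± 1.76 TPM (log2 fold change 0.55, limma adjusted p = 0.043), and its rescaled value of 0.22 did not pass the test (limma adjusted p = 0.40), nor did the value of 0.37 in TPM as deposited without WT males 1 and 2 (limma adjusted p = 0.21). Cdkn1c (p57) was at 1.78 ± 0.88 TPM in WT and 2.65 ± 1.35 TPM in KO livers and did not pass the test (limma adjusted p = 0.071). Cdkn2a was not tested, at 0 to 0.32 TPM in WT and 0.08 to 0.73 TPM in KO livers.

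Of 20 other genes of G1 and S entry, 19 were tested, and 8 rose and 0 fell in TPM as deposited (50.1% of all tested genes rose), whereas 4 rose and 5 fell after rescaling (20.9% rose). The median log2 fold change was 0.33 against 0.35 for all tested genes, and -0.10 against -0.04 after rescaling. Rbl1, the pocket protein gene p107, rose from 0.63 ± 0.36 to 2.19 ± 1.04 TPM (log2 fold change 0.94, limma adjusted p = 0.0020). The activator genes E2f2 and E2f1 rose by 0.88 (limma adjusted p = 0.00079) and 0.84 (limma adjusted p = 0.00072) on the log2 scale, and all 3 also rose after rescaling.

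Of the genes of S phase and mitosis, 13 of 13 tested rose (50.1% of all tested genes did), and 12 after rescaling (20.9%), with a median log2 fold change of 1.28 and of 1.07 after rescaling. Cdc20, an activator of the anaphase-promoting complex, went from 0.96 ± 0.52 to 6.71 ± 3.01 TPM (log2 fold change 1.94, limma adjusted p = 2.0e-05). Ccnb2, a mitotic cyclin gene, went from 0.96 ± 0.71 to 5.27 ± 1.60 TPM (log2 fold change 1.72, limma adjusted p = 8.3e-05), and Plk1, a mitotic kinase gene, from 0.40 ± 0.24 to 3.48 ± 1.59 TPM (log2 fold change 1.64, limma adjusted p = 1.4e-05). None of these genes stood apart in WT males 1 and 2 by the 4-fold rule, which 0.171% of all tested genes met. On the TPM + 1 scale such a fold is harder to reach at these low levels. Which cells held the mitotic and the inhibitor transcripts was not tested.

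Of 16 other growth arrest and senescence-associated genes, 15 were tested, and 8 rose and 2 fell (50.1% of all tested genes rose), and 5 rose and 3 fell after rescaling (20.9% rose). The median log2 fold change was 0.51 against 0.35 for all tested genes, and 0.08 against -0.04 after rescaling. Gadd45g and Gadd45b, stress sensors of the growth arrest and DNA damage family, rose by 2.41 (limma adjusted p = 0.0047) and 1.95 (limma adjusted p = 0.023), and their log2 fold changes were 3.55 and 2.82 without WT males 1 and 2. Of 7 tested genes of the integrated stress response, 4 rose and 0 fell, and 2 rose after rescaling, beside the same 50.1% and 20.9% of all tested genes. The median log2 fold change was 0.33, and -0.11 after rescaling. Atf3, a stress-induced repressor gene, rose by 2.43 (limma adjusted p = 0.022), with 68.3 and 18.6 TPM in WT males 1 and 2 and 1.17 to 2.28 TPM in the other WT livers. Asns, the asparagine synthetase gene, rose by 1.54 (limma adjusted p = 0.0010) and Ppp1r15a, which encodes the GADD34 phosphatase subunit, by 1.20 (limma adjusted p = 0.0013).

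**Figure D4:**
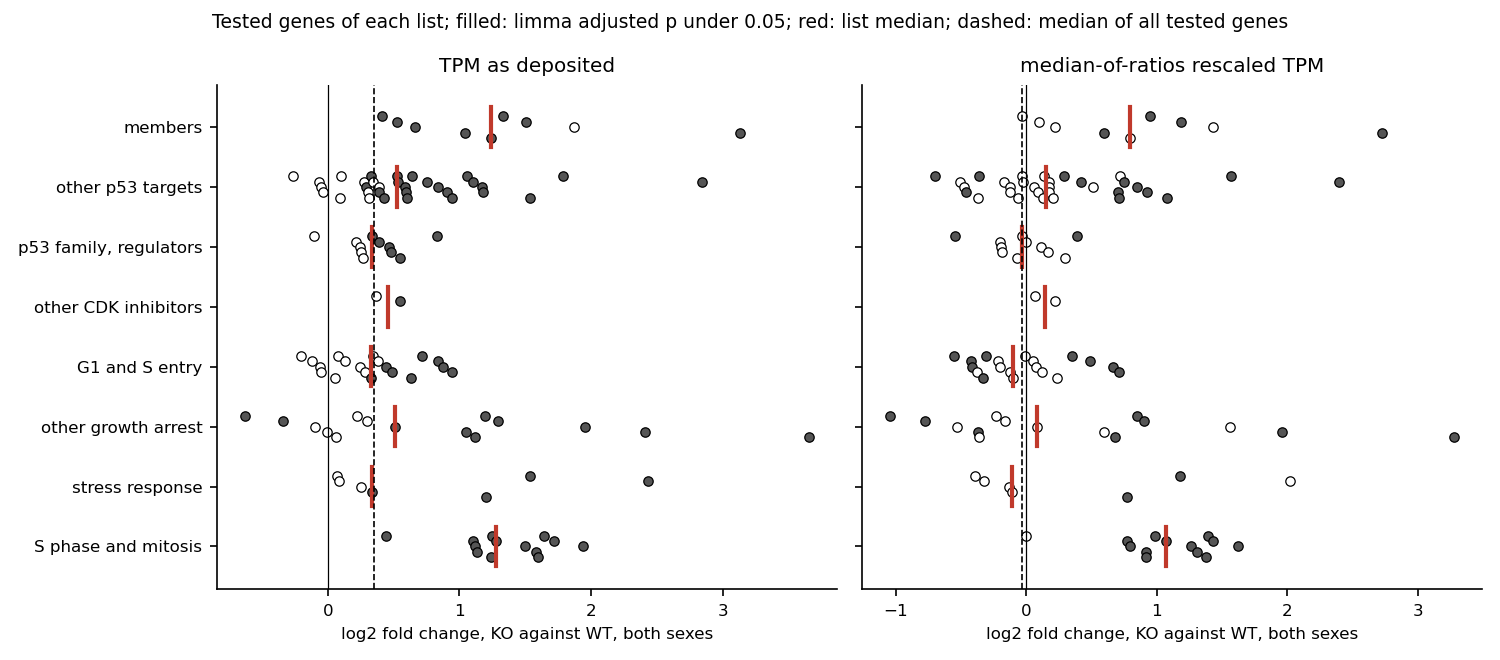
Log2 fold change of KO against WT over both sexes (x axis) for each tested gene of the members and of 7 gene lists (rows), from TPM as deposited (left) and rescaled TPM (right); filled points passed the limma test at an adjusted p under 0.05, red bars are list medians, and the dashed line is the median of all tested genes. The S phase and mitosis genes lie to the right of the dashed line in both panels, with a median of 1.28 as deposited and 1.07 after rescaling.

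Markers of other cell types were read beside the 50.1% of all tested genes that rose in TPM as deposited and the 20.9% that rose after rescaling. The summed TPM of 5 macrophage markers was 59.2 to 189 in WT and 266 to 539 in KO livers, and 5 of 5 rose. Summed bile duct cell markers were at 27.7 to 58.5 TPM in WT and 252 to 713 TPM in KO livers. Of these, 2 of 4 tested markers rose (Spp1 by 3.76 and Sox9 by 1.57 on the log2 scale) and Epcam fell, by 0.35. Such sums follow the most abundant genes of each list and do not count cells. Stellate cell markers summed to 55.3 to 158 TPM in WT and 148 to 365 TPM in KO livers, and 4 of 6 rose. Hepatocyte markers summed to 73799 to 101564 TPM in WT and 55659 to 81052 TPM in KO livers, with Hnf4a higher and Ttr lower in KO. Of the neutrophil markers 3 of 3 tested rose, and Ly6g was listed at 0 in 10 of 12 livers. After rescaling 5 macrophage, 2 bile duct cell, 3 stellate and 1 neutrophil markers rose, 0 hepatocyte markers rose and 2 fell. None of 3 tested T and B cell markers changed, and of 4 endothelial markers Kdr fell, by 0.62 on the log2 scale. Neither Epcam nor Kdr passed the test in TPM as deposited without WT males 1 and 2. The part of these cell types in the values of the 10 genes was not tested.

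In the authors' deposited table of KO against WT, Cdkn1a has a log2 fold change of 1.86, Phlda3 of 2.05, Cdkn2c of 1.54 and Bax of 0.85, each with an FDR p listed at 0 after rounding. The authors' deposited table gives Ccnd1 a log2 fold change of 1.22 with an FDR p of 0.01 and Cdkn2b one of 1.78 with an FDR p of 0.07. In the authors' deposited table Cdkn1b (0.08), Mdm2 (0.11), Ccng1 (-0.08) and Gdf15 (-0.21) have FDR p of 0.74 to 0.81. The rescaled log2 fold changes of the same 4 genes in the tests described here were 0.09, 0.22, -0.03 and 1.43. For Gdf15 the linear mean was 71.7 ± 113 TPM in WT and 94.8 ± 84.7 TPM in KO livers as deposited, and 91.7 ± 142 TPM in WT and 83.9 ± 77.3 TPM in KO livers after rescaling (SD, n = 6 each). The log2 ratio of the rescaled linear means was -0.13, close to the -0.21 of the authors' deposited table.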

How the data were processed

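Whole-liver RNA of 12 mice was sequenced; per the labels' protocols, frozen tissue was extracted with Trizol and purified on columns with DNase digestion, and a sequencing company made Illumina libraries. The authors deposited TPM per gene, each column summing to 1000000; the submitters' processing notes name edgeR and GRCm38, and the aligner, counter, annotation and use of strand are not given in the sources used here. The authors' deposited table also carries their fold change, its log2 and a rounded FDR p-value. All sample columns matched a sample (0 unmatched).

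Groups came from the sample titles. In the labels the library number of WT male 2 lies outside the run of the other libraries, and the reason is not given. TPM were transformed as log2(TPM + 1), which understates changes of low genes, and limma was run on the genes whose TPM averaged 0.5 or more over the livers (version 3.58.1, R 4.3.3; lmFit, eBayes with trend), Benjamini-Hochberg adjusted over all 12278 tested genes: genotype with sex as a covariate, and the other comparisons from a model of the 4 group means. The script was tested on simulated data. Alternatives were median-of-ratios scaling, scaling without the 20 most abundant genes, a pseudocount of 0.1, no filter or a mean of at least 2 TPM, no trend, and leaving out livers; fits without WT males 1 and 2, and without WT male 3 with rescaling, were added after seeing the data.

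The members and gene lists were chosen with earlier results of these data known. Named are all members, Yap1, the 3 genes of each pathway list past the threshold with the largest change, and all other CDK inhibitors (1 gene that this rule picks is not reported here); cell type markers were counted by list. Positions are from GENCODE M21 and promoters from RefSeq, both GRCm38. Bax overlaps a weakly expressed gene on its own strand (Gm45808, 0.27 TPM), and LTO1, opposite Ccnd1, averaged 3.28 TPM.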

Additional observations from a re-analysis of the deposited data

How the results depend on the processing

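Scaling and the WT males decided most of the changes; the cause was not tested beyond these settings. With median-of-ratios scaling the number of members past the threshold was 4 over both sexes, 3 in males and 3 in females, and 0 tested members separated the genotypes. In all, 4861 genes passed over both sexes, 2959 in males and 3209 in females. Among values past the threshold, those that turned direction under it were Ccng1 (-0.032 over both sexes, -0.063 in males), Cdkn1b (-0.053 in males) and Mdm2 (-0.043 in males); values not past it that did so were Gdf15 in males (0.10 to -0.45) and Ccnd1 (0.33 to -0.012) and Ccng1 (0.33 to -0.00050) in females, and Ccng1 for the interaction (0.15 to -0.063) and for sex in WT (-0.15 to 0.061). Without WT males 1 and 2, with 1 WT male left, 2900 genes passed in males and 165 genes and 0 members for the sex difference in WT. With rescaling as well these were 1861, 169 and 0, and 5 members passed over both sexes, 2 in males and 2 separated the genotypes, with Cdkn1b at -0.014 in males. Without WT male 3 and with rescaling, 4418 genes and 3 members passed over both sexes, 2669 genes and 3 members in males, 176 genes and 2 members for the interaction, 1485 genes and 5 members for sex in WT, and 0 separated; Ccng1 was then at -0.049 over both sexes and -0.11 in males, Cdkn1b at -0.073 and Mdm2 at -0.11 in males, as were Cdkn1a at -0.14 and Gdf15 at -2.28, which had not passed. In the fits without WT males 1 and 2, WT male 1 or WT male 3, counts of members that include Cdkn1a or Gdf15 follow from the choice of livers; they are both members counted for the interaction, 2 of those for sex in WT, 2 of the 5 over both sexes, 1 of the 2 in males and both that separated the genotypes. Without WT female 3 and KO female 1, whose animal numbers lie far below the others, 1 member (Ccnd1) and 100 genes in all passed for the interaction. In this fit 3 members and 2828 genes passed in females and 465 genes for sex in WT. WT female 3 is the WT female with low Ccnd1, and the Ccnd1 call depends on leaving it out. Leaving out each liver in turn gave 8 to 9 members over both sexes, 6 to 7 in males, 4 to 7 in females, 0 to 2 for the interaction, 1 to 4 for sex in WT and 4 to 5 that separated the genotypes. Over all 12278 tested genes it gave 6277 to 6880 genes over both sexes, 4450 to 5659 in males and 3081 to 4564 in females. It gave 75 to 176 genes for the interaction, 291 to 1698 for sex in WT and 6 to 10 for sex in KO. The pseudocount, the filters and the trend moved no count of members by over 1.5 times, although without the filter Gdf15 was lost in females (limma adjusted p = 0.072) and Cdkn2b was gained. No paired analysis was possible because the labels give no replicate numbers. Read depth is unknown in TPM, so counting error behind low genes such as Cdkn2b cannot be given.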

Other observations

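The 15 clock genes, chosen after their values were seen, separated the 6 KO livers from the 4 WT livers other than WT males 1 and 2 in 10 cases, as did 37.9% of all tested genes. In 7 of the 12 clock genes in which WT males 1 and 2 both stood outside the other WT livers, both lay inside the KO range, as in 19.2% of the 4817 tested genes with such a WT pattern. Nfil3, a clock output repressor gene, was at 69.0 to 97.3 TPM in WT males 1 and 2, at 7.18 to 14.9 TPM in the other WT livers and at 31.9 to 91.3 TPM in KO livers. Per3, a clock repressor gene, was at 0.23 to 0.30, 14.3 to 24.9 and 0.31 to 4.13 TPM in the same order, and Tef, a clock output gene, at 10.7 to 12.6, 72.8 to 105 and 10.4 to 43.6 TPM. Nr1d1, the REV-ERB alpha gene, did not follow this order, with 54.6 to 64.9 TPM in WT males 1 and 2, inside the range of the other WT livers (36.5 to 119 TPM).

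All 7 immediate early genes, also chosen after their values were seen, separated the KO livers from these 4 WT livers (37.9% of all tested genes did). In 6 of them WT males 1 and 2 lay inside the KO range, as in 19.2% of the 4817 tested genes where both stood outside the other WT livers. Egr1 was at 212 to 269 TPM in WT males 1 and 2, at 5.75 to 9.82 TPM in the other WT livers and at 33.2 to 475 TPM in KO livers, and Jun at 145 to 261, 5.35 to 8.35 and 42.0 to 477 TPM. Of the 21 genes at least 4-fold higher in WT males 1 and 2 than in the other WT livers, 16 had every KO liver above those 4 (34% of all tested genes did), and 4 genes were at least 4-fold lower.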
